A study of Mus musculus with 15 samples.

Results

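The 47 genes described here encode the machinery of DNA replication and of entry into S phase, and they were followed across 5 conditions in a mouse fibroblast line. They were taken from a fixed list of symbols: 16 genes of the replicative helicase and its loading, 18 of the sliding clamp, its loader and the polymerases, 5 that act on chromatin behind the fork, 4 E2F factors and 4 genes of fork protection and repair. They are 47 of the 55266 genes that the count files cover. The choice used no measured value, but it was made with earlier results of these data known.

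Before a cell can copy its genome, the origin recognition complex and its partners load the MCM helicase onto DNA as an inactive ring, which the GINS complex and others later activate. DNA polymerase alpha with primase then starts each strand, polymerases delta and epsilon extend it, and the PCNA clamp, placed by the RFC loader, keeps them on the template. In fibroblasts that leave quiescence, transcription of many of these genes is driven late in G1 by E2F factors. E2F2 belongs to the activating E2Fs, and E2F7 is an atypical member that represses the same targets during S phase.

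The series asks which transcription depends on mTORC1, a kinase complex that links growth factors and nutrients to growth, and which on the mTORC1 in the nucleus. RNA came from NIH3T3, an established mouse fibroblast line, carrying a doxycycline-inducible histone H2A fused either to the fluorescent protein mCherry, as control, or to TerminaTOR, an inhibitor that the histone places in the nucleus. All groups were starved, and 4 of the 5 received PDGF, a growth factor that drives fibroblasts into the cycle. The groups had 3 libraries each: H2A-mCherry cells left without PDGF, given PDGF, given rapamycin (a drug that inhibits mTORC1 throughout the cell) and PDGF, or given cycloheximide (a drug that blocks translation) and PDGF, and H2A-TerminaTOR cells with cycloheximide and PDGF. No TerminaTOR library without cycloheximide was analysed here, so TerminaTOR and rapamycin were measured on different backgrounds. The sources used here give no dose or time, nor the number of clones behind each stable line. Replicates are not stated to be separate cultures, so p-values cover the spread between libraries only, and that spread may be technical.

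The libraries held 3466202 to 6777780 counted reads. Of the 12 fibroblast markers examined, 11 passed the filter on low counts, as did 2 of 7 macrophage, 1 of 5 endothelial and 1 of 5 epithelial markers. The macrophage markers summed to 6.72 to 11.3 CPM without PDGF and to 16.0 to 26.1 CPM in the groups with PDGF, with *Adgre1* and *Itgam* at 0 in every library, and the endothelial and epithelial markers reached at most 4.74 and 3.88 CPM, with *Epcam* and *Krt18* at 0. As a check of the PDGF treatment, 14 of the 15 immediate early genes tested rose in PDGF against no PDGF and none fell, with *Fosb* up by 6.19 on the log2 scale (edgeR's quasi-likelihood test, adjusted p = 7.15e-13). Levels are given below as CPM, reads relative to the total of the library, after TMM scaling, a correction for differences in RNA composition between libraries. Changes are on the log2 scale with a standard error (SE), and a gene was called higher or lower at an adjusted p under 0.05 in edgeR's quasi-likelihood test over all 10603 genes tested. The counts are per transcript and were summed per gene, so a level can move with the transcripts used, and levels are compared between libraries and not between genes.

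Of the 47 genes, 24 passed the filter and were tested. The other 23 had between 0 and 68 reads over all 15 libraries, with a median of 17, and 10 of them had fewer than 10 reads. They include *Mcm3*, *Mcm5* and *Mcm6*, subunits of the helicase ring, *Cdc6* and *Cdt1*, which load it, and *Cdc45*, which activates it with the GINS subunit *Gins2*. Also untested were the clamp loader genes *Rfc1*, *Rfc3* and *Rfc4*, the primase subunit *Prim1*, the polymerase subunits *Pold1* and *Pole2*, the single-strand binding protein *Rpa1*, and *Fen1* and *Lig1*, which process and seal Okazaki fragments. The list closes with *Uhrf1* and *Dnmt1*, which maintain DNA methylation, the chromatin assembly factors *Chaf1a* and *Chaf1b*, the repressor *E2f8*, and *Timeless* and *Brca2*, which protect and repair forks. *Fen1* had no read, and only 6 of its exon bases lie in a single transcript. The median of such bases was 1329 in the untested genes and 3366 in the tested genes. Their low counts do not show whether the cells expressed them. The 5 untested genes with the most reads went different ways. Summed over 3 libraries each, in the order no PDGF, PDGF, rapamycin, cycloheximide and TerminaTOR, *Prim1* had 35, 13, 5, 9 and 6 reads, all from transcripts annotated with a retained intron, and *Chaf1a* had 20, 16, 5, 11 and 12 reads. *Mcm5* had 10, 16, 3, 10 and 22 reads, *Pole2* 13, 14, 13, 12 and 4, and *Mcm6* 10, 6, 11, 16 and 12. All *Pole2* reads, too, came from transcripts annotated with a retained intron.

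A fit without the filter, planned as an alternative, called 4 of these 23 genes, each lower and each on few reads. *Chaf1b* had 23 reads without PDGF, 10 with PDGF and 0 with cycloheximide and PDGF, and was called lower with cycloheximide than with PDGF alone (edgeR, adjusted p = 0.026) and than without PDGF (adjusted p = 0.0017). *Rfc1*, with 22 reads without PDGF, 1 with rapamycin and 1 with cycloheximide, was called lower than without PDGF in both (adjusted p = 0.0387 and 0.0221). All *Rfc1* reads came from a transcript annotated with a retained intron. So did 17 of the 23 *Chaf1b* reads without PDGF and all 10 with PDGF, from such transcripts of that gene. *Rpa1*, with 16 reads without PDGF and 0 with rapamycin, and *Prim1* were called lower with rapamycin than without PDGF (adjusted p = 0.0132 and 0.0429).

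Promoters of the genes that fell with rapamycin are shown first, because many genes of replication are known to share E2F sites. RefSeq promoter windows (GRCm38.p6, 250 bases before to 50 after a start site) were matched for 40 of the 47 genes. The E2F letters searched were TTTCCCGC, TTTGGCGC, TTTGCCGC and TTTCGCGC on both strands, which may overlap one another. They stood in 20 of the 48 promoter windows of these 40 genes (41.7%), against 2.26% of all 32817 windows. The CHR letters TTTGAA or TTTAAA, an element of genes expressed late in the cycle, stood in 20.8% of the members' windows and in 27.6% of all windows, and CCAAT stood in 62.5% and 37.4%. Of the 11 genes called lower with rapamycin, 8 had a window and 6 of those held an E2F match. Among the 13 genes tested but not called, 10 had a window and 2 held a match, and among the 23 untested genes 22 had a window and 12 held a match. A match is a run of letters and not a measured binding site. The 6 matches in genes that fell with rapamycin are printed 5′ to 3′ on the strand of the gene, 30 bases each, with the E2F letters in capitals. They lie at chr4:136172294-136172323 (*E2f2*, plus strand), chr10:110745230-110745259 (*E2f7*, plus), chr8:95633507-95633536 (*Gins3*, plus), chr4:126556990-126557019 (*Clspn*, plus), chrX:93632275-93632304 (*Pola1*, minus) and chr5:138172030-138172059 (*Mcm7*, minus, the first of 2 matches).
E2f2: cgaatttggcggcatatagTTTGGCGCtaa
E2f7: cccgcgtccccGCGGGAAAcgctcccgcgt
Gins3: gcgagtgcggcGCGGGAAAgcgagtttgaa
Clspn: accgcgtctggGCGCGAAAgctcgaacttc
Pola1: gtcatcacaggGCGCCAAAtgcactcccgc
Mcm7: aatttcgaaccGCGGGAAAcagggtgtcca
In *E2f2* the letters read TTTGGCGC along the gene, and in the other 5 they lie on the opposite strand, so that the gene's strand shows their reverse complement.

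Summed over the 47 genes, the level was lowest with rapamycin and PDGF. The 3 libraries without PDGF had summed levels of 725, 820 and 722 CPM, those with PDGF 620, 666 and 628 CPM, and those with rapamycin and PDGF 415, 422 and 377 CPM. With cycloheximide and PDGF the sums were 705, 790 and 770 CPM in mCherry cells and 846, 848 and 891 CPM in TerminaTOR cells. All 3 rapamycin libraries lay below all 12 others, and all 3 TerminaTOR libraries lay above all others, while the ranges without PDGF and with cycloheximide and PDGF overlapped. The 5 genes with the most reads, *Mcm2*, *Mcm4*, *Pola1*, *Mcm7* and *Gins4*, supplied 69.0% of the 47124 reads of the group. Scaled by library size alone, the means were 909 CPM without PDGF, 646 with PDGF, 376 with rapamycin, 694 with cycloheximide and 810 in TerminaTOR cells, so the place of the libraries without PDGF in the order depends on the scaling. In RNA from whole cultures, fewer cells in S phase and less RNA of these genes per cell cannot be told apart.

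**Figure D1:**
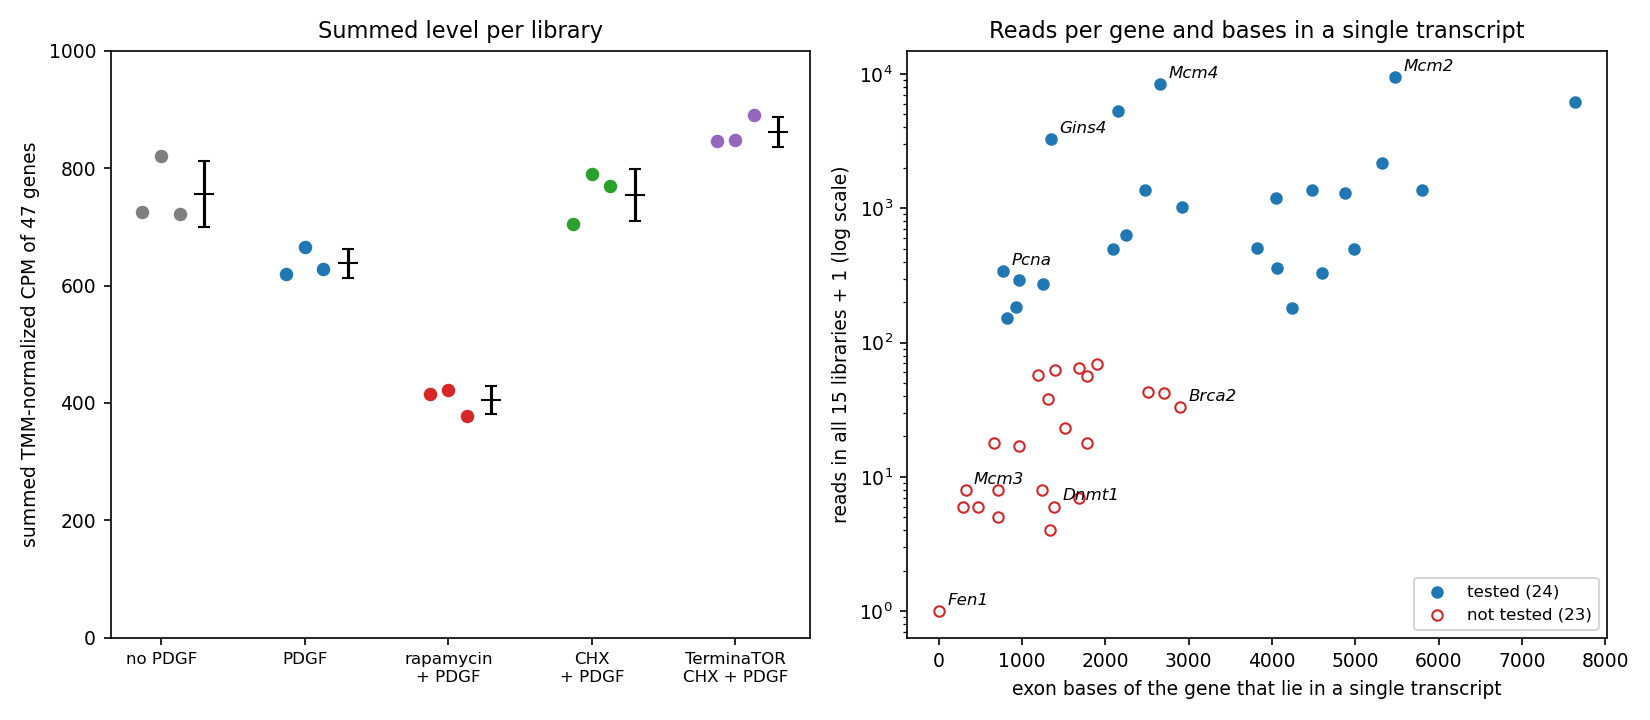
Left, summed TMM-normalized CPM of the 47 genes in each of 15 libraries, with the mean and SD of each group as black bars; the rapamycin libraries lie lowest, at 377 to 422 CPM. Right, reads of each gene over all libraries plus 1, on a log scale, against the number of its exon bases that lie in a single transcript; the 23 untested genes (open) reached at most 68 reads and the 24 tested genes (filled) had at least 152.

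Genes of the helicase, the polymerases, the E2F family and fork protection fell with rapamycin. Against PDGF alone, 11 of the 24 tested genes fell with rapamycin and PDGF and none rose. Over all genes tested 32.3% were called in either direction and 16.1% were called lower. The median change was -0.55 over the 24 genes and 0.02 over all genes tested. These counts describe the genes that had enough reads and are not a test of the group.

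*Mcm2* and *Mcm4*, subunits of the helicase ring, had the smallest adjusted p-values. *Mcm2* (chr6:88883474-88898780, minus strand, GRCm38) had 138, 153 and 136 CPM with PDGF and 80.2, 78.1 and 72.0 CPM with rapamycin and PDGF, a change of -0.89 (SE 0.09, adjusted p = 1.3e-13). For *Mcm4* (chr16:15623897-15637400, minus strand) the levels were 113, 115 and 114 CPM with PDGF and 55.1, 67.1 and 41.1 CPM with rapamycin, a change of -1.08 (SE 0.11, adjusted p = 4.51e-12). In neither gene did the libraries of the groups overlap. *Mcm7* (chr5:138164583-138172422, minus strand), also of the ring, fell by 0.44 on the log2 scale (SE 0.11, adjusted p = 0.00119), from 72.2, 86.8 and 72.5 CPM to 61.3, 56.0 and 53.0 CPM. *Mcm7* overlaps *Ap4m1* and *Cops6* on the opposite strand, and the sources used here do not say whether the counting used strand.

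The GINS complex joins the ring to make the active helicase. Its subunit *Gins3* (chr8:95633453-95645060, plus strand) had 8.81, 10.3 and 8.29 CPM with PDGF and 4.73, 4.92 and 4.75 CPM with rapamycin, a change of -0.92 (SE 0.30, adjusted p = 0.011), with no overlap. *Gins4* (chr8:23226616-23237659, minus strand) changed by -0.54 (SE 0.15, adjusted p = 0.00413), and its libraries overlapped, at 37.5, 46.8 and 39.8 CPM against 28.4, 38.1 and 19.7 CPM. The call of *Gins4* was lost without the third rapamycin library (adjusted p = 0.123) and that of *Gins3* without the second PDGF library (adjusted p = 0.0552). *Gins1*, a further subunit, changed by -0.56 (95% interval -1.40 to 0.29) and was not called. The origin genes *Orc1* and *Orc6* and the activator *Mcm10* were not called either, with changes of -0.28 (-0.71 to 0.15), 0.20 (-0.76 to 1.16) and -0.03 (-0.99 to 0.94).

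Among polymerase genes, *Pole*, the catalytic subunit of polymerase epsilon (chr5:110286306-110337474, plus strand), had 16.0, 18.1 and 16.2 CPM with PDGF and 6.96, 6.46 and 11.6 CPM with rapamycin. Its change was -0.97 (SE 0.22, adjusted p = 0.000238), and the groups did not overlap. *Pola1*, the catalytic subunit of polymerase alpha (chrX:93304767-93632155, minus strand), went from 84.5, 82.4 and 81.6 CPM to 57.1, 55.1 and 51.8 CPM, a change of -0.60 (SE 0.11, adjusted p = 3.95e-06) that was larger than the spread in either group. None of the other 7 tested genes of the clamp, its loader and the polymerases was called: their changes ran from -0.58 in *Pola2* and *Rpa2* to 0.55 in *Rfc2*. *Prim2*, the large primase subunit, had the narrowest interval of these, -0.40 to 0.24 around -0.08. *Rfc2* depended on a single library: without the third PDGF library, which had 6.21 CPM against 3.03 and 2.33 in the others, its change was 1.11 (adjusted p = 0.0439).

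An activator and a repressor of the E2F family both fell. The activator *E2f2* (chr4:136172394-136196057, plus strand) had 5.51, 4.91 and 6.42 CPM with PDGF and 3.62, 1.23 and 2.14 CPM with rapamycin, a change of -1.26 (SE 0.41, adjusted p = 0.0115). It was no longer called without the third PDGF or the second rapamycin library (adjusted p up to 0.0805). The repressor *E2f7* (chr10:110745439-110787384, plus strand) had 15.4, 19.6 and 13 CPM with PDGF and 8.08, 8.0 and 8.79 CPM with rapamycin, a change of -0.94 (SE 0.22, adjusted p = 0.000459). Neither gene's groups overlapped. *E2f1*, the other activator tested among the 47 genes, stood at 0.826 to 2.58 CPM and 0.923 to 1.95 CPM. Its interval of -1.61 to 0.97 covers changes as large as these.

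*Clspn* encodes claspin, which passes the replication stress signal to the checkpoint kinase at the fork, and *Brca1* acts in fork protection and recombination. *Clspn* (chr4:126556935-126593903, plus strand) had 17.1, 12.4 and 14.9 CPM with PDGF and 12, 5.84 and 5.94 CPM with rapamycin (change -0.90, SE 0.24, adjusted p = 0.00239). *Brca1* (chr11:101488764-101551955, minus strand) had 8.54, 13.4 and 13 CPM against 9.19, 5.23 and 8.08 CPM, which overlap (change -0.63, SE 0.25, adjusted p = 0.0395). The call of *Brca1* was lost without the second or the third PDGF library, without the second or the third rapamycin library, with limma-voom and in a fit of the compared groups alone (adjusted p up to 0.203). *Slbp*, which binds histone messages in S phase, was the only tested gene of chromatin behind the fork and was not called (0.54, 95% interval -0.30 to 1.38).

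Fibroblast genes moved with rapamycin too. The summed level of the 12 fibroblast markers was 8053 to 8421 CPM with PDGF and 5289 to 5709 CPM with rapamycin and PDGF, and the mitochondrial share of counts was 8.69% to 9.30% and 9.85% to 11%. Their part in the changes of the replication genes was not tested. Scaling by library size left 11 of 24 genes called lower and none higher, although it moved the median of all genes to -0.10 and the calls over all genes from 1724 higher and 1706 lower to 1260 higher and 2265 lower.

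**Figure D2:**
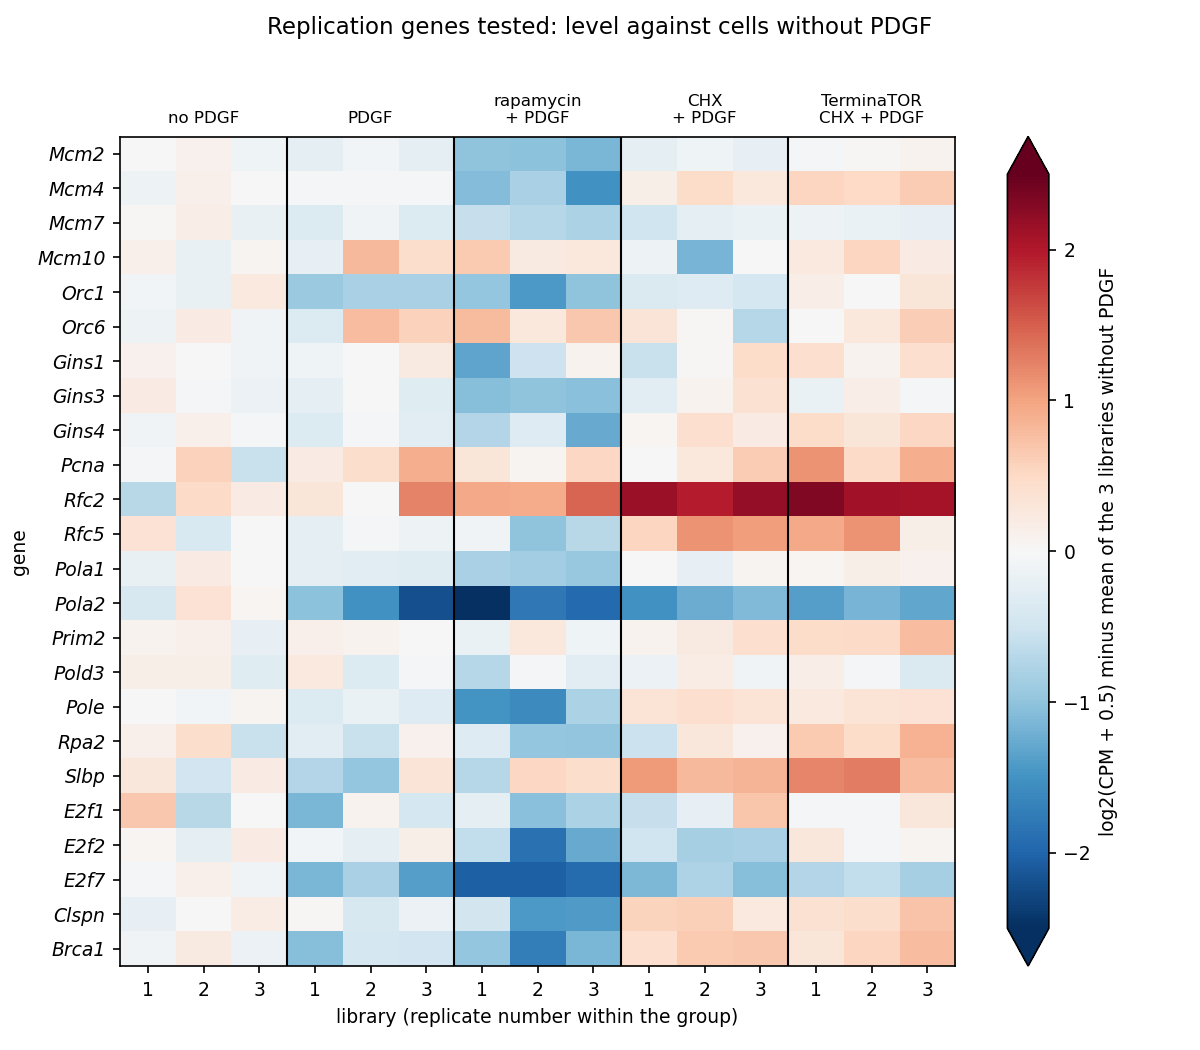
Level of the 24 tested genes (rows) in each of the 15 libraries (columns, grouped by condition), as log2(CPM + 0.5) minus the mean of the 3 libraries without PDGF; blue is lower and red is higher. For *Mcm2*, *Mcm4*, *Mcm7*, *Gins3*, *Pole* and *E2f7* the 3 rapamycin columns are the lowest of all, and *Rfc2* is reddest in the 6 libraries with cycloheximide.

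Against cells without PDGF, the median change of the 24 genes with rapamycin and PDGF was lower than against PDGF alone. This comparison spans both the change with PDGF and the change with rapamycin. With rapamycin and PDGF, 14 of the 24 genes were lower than without PDGF and *Rfc2* was higher (1.22, SE 0.37, adjusted p = 0.00354). Over all genes tested 53.3% were called and 25.5% were called lower, and the medians were -0.87 for the 24 genes and 0.02 for all. By library-size scaling 18 of the 24 were lower, with *E2f1*, *Pold3*, *Prim2* and *Rfc5* added, and *Rfc2* was higher. That scaling moved the medians to -1.25 and -0.36 and the calls over all genes from 2948 higher and 2708 lower to 1918 higher and 4153 lower, so that 39.2% were lower. *E2f7* fell from 33.6, 38.0 and 32.5 CPM to 8.08, 8.0 and 8.79 CPM, a change of -2.06 (SE 0.20, adjusted p = 3.18e-14). *Pola2*, the regulatory subunit of polymerase alpha, changed by -2.23 (SE 0.32, adjusted p = 1.43e-08), but on its most counted transcript alone by -1.41 (adjusted p = 0.0139). *Orc1*, the largest subunit of the origin recognition complex, fell by 1.16 on the log2 scale (SE 0.20, adjusted p = 6.09e-07). PDGF alone changed *Pola2* by -1.65 and *Orc1* by -0.88, both called. Rapamycin against PDGF changed *Pola2* by -0.58 and *Orc1* by -0.28, without a call. The single-strand binding subunit *Rpa2* was called at -0.85 (SE 0.34, adjusted p = 0.0277). Its call was lost with limma-voom and without any 1 of 4 libraries: the first or second without PDGF, or the second or the third with rapamycin (adjusted p up to 0.17). The call of *Rfc2* was lost without the first library without PDGF (adjusted p = 0.0591).

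**Figure D3:**
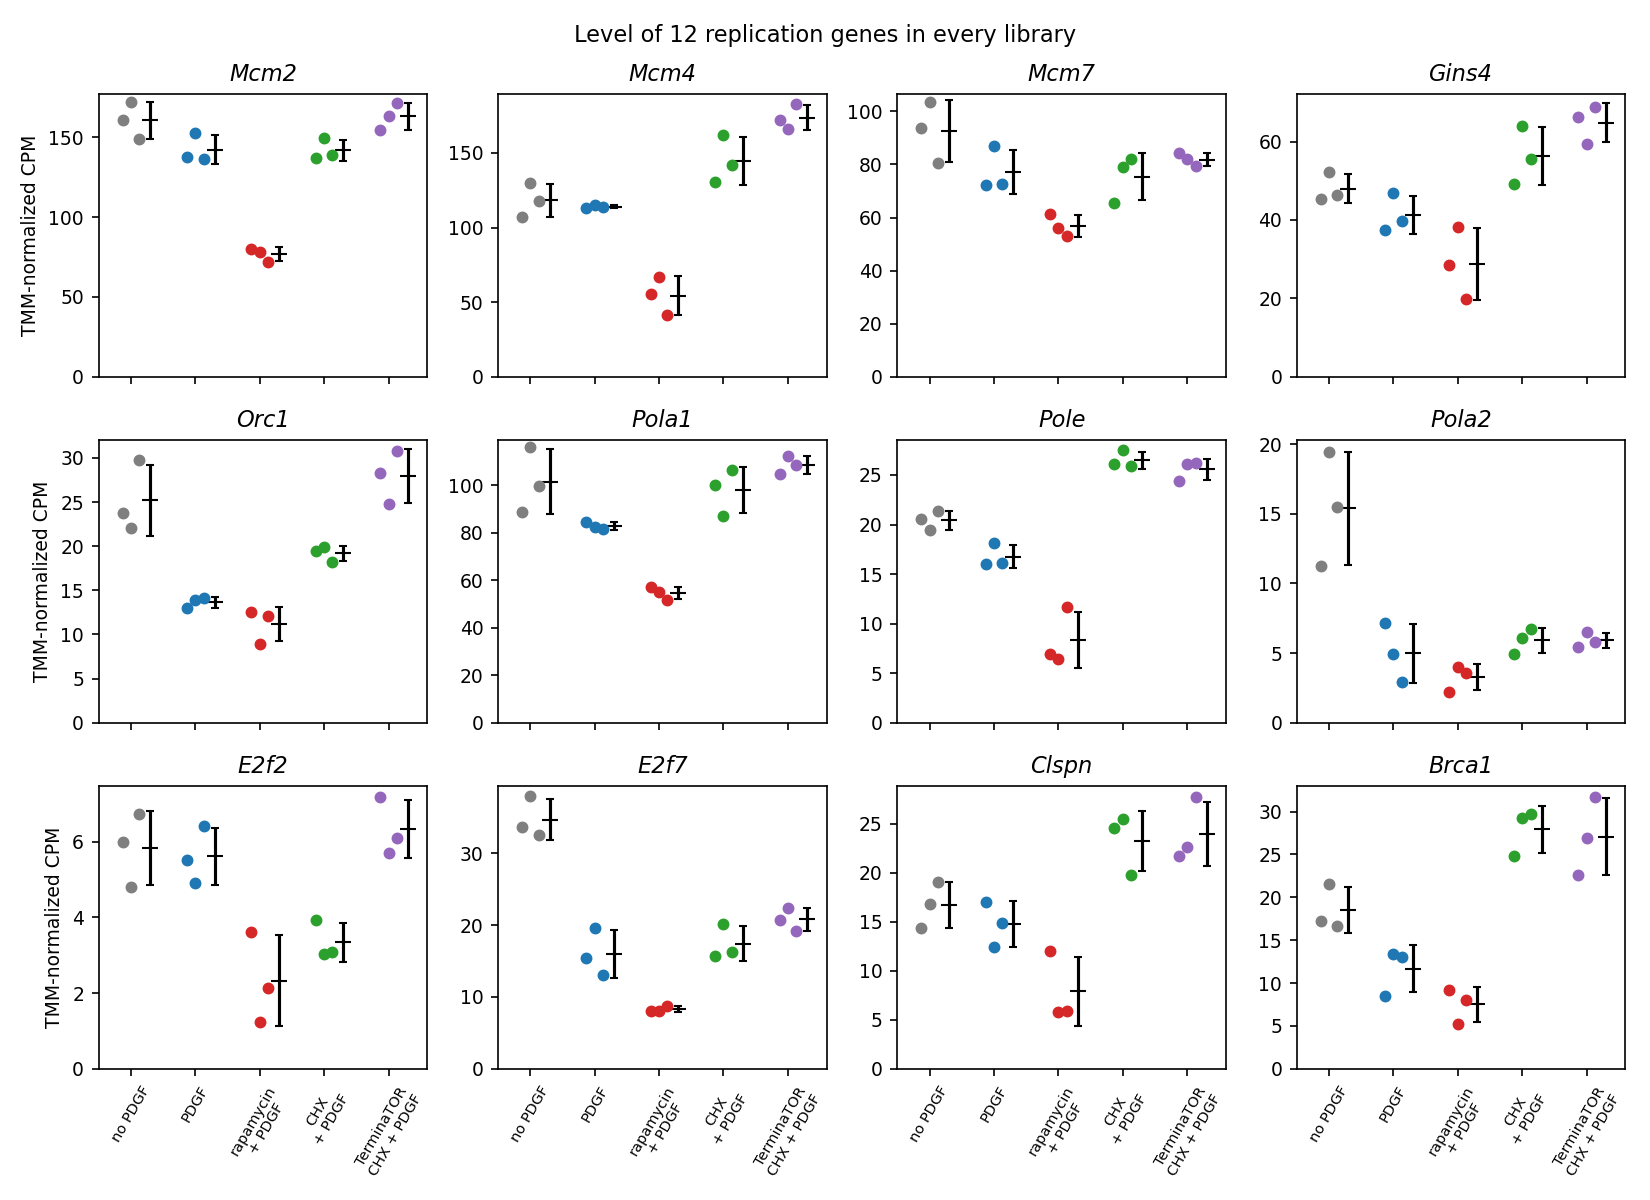
TMM-normalized CPM of 12 replication genes in every library; each dot is a library, and the black bars give the mean and SD of the 3 libraries of a group. *Mcm2*, *Mcm4* and *Pola1* are lowest in the 3 rapamycin libraries, whereas *Orc1*, *Pola2* and *E2f7* are already lower with PDGF alone than without it.

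With PDGF alone, the genes that were called were lower. Against cells without PDGF, 6 of the 24 fell and none rose, where 37.0% of all genes tested were called and 16.9% were called lower. The medians were -0.20 and -0.01. The mitochondrial share of counts was 11.1% to 12.2% without PDGF and 8.69% to 9.30% with it, and the fibroblast markers summed to 9164 to 9349 CPM and 8053 to 8421 CPM. The part of these, and of the macrophage markers, in the changes with PDGF was not tested. An unadjusted p under 0.05 was reached by 7 of the 24, DESeq2 called 5 and limma-voom 6, and all of these calls were lower. Over all 10603 genes tested, 4710 had an unadjusted p under 0.05, DESeq2 called 3739 and limma-voom called 3943. Scaled by library size, 10 of 24 were called lower, with *Mcm2*, *Mcm4*, *Gins4* and *Pole* added, but that scaling also moved the median of all genes to -0.26 and the calls over all genes from 2128 higher and 1794 lower to 1379 higher and 3111 lower.

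*Orc1* had 23.8, 22 and 29.7 CPM without PDGF and 12.9, 14 and 14.1 CPM with it, a change of -0.88 (SE 0.19, adjusted p = 8.92e-05). *E2f7* had 33.6, 38.0 and 32.5 CPM without PDGF and 15.4, 19.6 and 13 CPM with it (-1.12, SE 0.18, adjusted p = 3.96e-07). The groups were apart in both genes. *Pola2* (chr19:5940542-5964202, minus strand) went from 11.3, 19.4 and 15.5 CPM to 7.16, 4.91 and 2.90 CPM (-1.65, SE 0.30, adjusted p = 4.77e-06). Its reads came from several transcripts: those of transcripts with a retained intron went from 103 reads in the 3 libraries without PDGF to 19 with PDGF, and those of protein-coding transcripts from 122 to 40. On its most counted transcript alone the change was -1.15 (adjusted p = 0.0491).

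*Brca1* changed by -0.65 (SE 0.21, adjusted p = 0.0104), from 17.3, 21.6 and 16.6 CPM to 8.54, 13.4 and 13 CPM. *Pola1* had 88.7, 116 and 99.9 CPM without PDGF and 81.6 to 84.5 CPM with it (-0.29, SE 0.10, adjusted p = 0.0149). *Mcm7* had 93.6, 104 and 80.4 CPM against 72.2 to 86.8 CPM, which overlap (-0.26, SE 0.11, adjusted p = 0.0442). The second library without PDGF weighs on these small changes: without it the calls of *Mcm7*, *Pola1* and *Brca1* were lost, leaving 3 genes. *Pola1* was also lost without the third PDGF library and *Brca1* without the first, and *Mcm7* in 6 of 13 alternatives (adjusted p up to 0.231, 0.118 and 0.311). The clamp gene *Pcna*, a common marker of S phase cells, had 3.45, 5.45 and 2.24 CPM without PDGF and 4.13, 4.91 and 7.04 CPM with it, which overlap (0.56, 95% interval -0.17 to 1.298).

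Some genes of the clamp loader, the polymerases and the fork rose with cycloheximide. Against PDGF alone, 10 of the 24 genes rose with cycloheximide and PDGF and none fell, where 40.6% of all genes tested were called and 21.0% were called higher. The medians were 0.26 and 0.01. Without the filter on low counts 8 rose, *Orc1* and *Pola1* were lost (adjusted p = 0.103 and 0.107), and *Chaf1b*, untested otherwise, was called lower. The mitochondrial share of counts was 8.69% to 9.30% with PDGF and 6.28% to 6.64% with cycloheximide and PDGF, and its part in these changes was not tested. By library-size scaling 6 rose, *Rfc2*, *Rfc5*, *Pole*, *Slbp*, *Clspn* and *Brca1*, and *E2f2* was called lower (-0.89, adjusted p = 0.0473), while the calls over all genes went from 2231 higher and 2079 lower to 1713 higher and 2677 lower and their median to -0.13. The calls of *Mcm4*, *Orc1*, *Gins4* and *Pola1*, between 0.25 and 0.49, thus depend on the scaling.

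*Rfc2*, a subunit of the clamp loader (chr5:134581366-134601805, plus strand), had 3.03, 2.33 and 6.21 CPM with PDGF and 12.2, 10.6 and 12.7 CPM with cycloheximide, a change of 1.57 (SE 0.32, adjusted p = 3.41e-05). Reads of its protein-coding transcripts went from 39 to 132 over the 3 libraries, and those of a transcript annotated as a target of nonsense-mediated decay from 1 to 11. *Rfc5*, of the same complex (chr5:117378103-117389047, minus strand), had 2.48, 2.84 and 2.69 CPM against 4.55, 7.06 and 6.72 CPM (1.18, SE 0.41, adjusted p = 0.0149). In both genes every cycloheximide library was above every PDGF library, but the call of *Rfc5* was lost without the first PDGF library or without the second or the third cycloheximide library (adjusted p up to 0.0644).

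*Brca1* rose from 8.54, 13.4 and 13 CPM to 24.8, 29.2 and 29.8 CPM (1.25, SE 0.20, adjusted p = 4.79e-07), and *Clspn* from 17.1, 12.4 and 14.9 CPM to 24.6, 25.5 and 19.8 CPM (0.65, SE 0.21, adjusted p = 0.00864). *Pole* had 26.1, 27.5 and 25.9 CPM with cycloheximide, all above its 16.0 to 18.1 CPM with PDGF (0.66, SE 0.19, adjusted p = 0.00263). *Slbp* (chr5:33634952-33652574, minus strand) had 1.93, 1.55 and 4.56 CPM with PDGF and 7.86, 6.56 and 6.72 CPM with cycloheximide (1.33, SE 0.38, adjusted p = 0.00339). Without the third PDGF library, the highest of the 3, its change was 2.01 (adjusted p = 0.000542). Most *Slbp* reads came from transcripts annotated with a retained intron, 24 with PDGF and 69 with cycloheximide, against 11 and 30 from protein-coding ones. The call of *Clspn* was lost without the second PDGF library (adjusted p = 0.0686). In the clamp, loader and polymerase group *Pcna*, *Pola2*, *Prim2*, *Pold3* and *Rpa2* were not called, with changes from -0.26 to 0.28. None of the 3 tested E2F genes was called with TMM scaling, and *E2f2* changed by -0.75 (95% interval -1.48 to -0.01, adjusted p = 0.1).

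In the helicase group 3 of 9 tested genes were called, with smaller changes. *Mcm4* had 130, 162 and 142 CPM with cycloheximide against 113 to 115 CPM with PDGF (0.34, SE 0.10, adjusted p = 0.004). *Gins4* had 49.2, 64.0 and 55.5 CPM against 37.5 to 46.8 CPM (0.44, SE 0.14, adjusted p = 0.0088). *Orc1* had 19.4, 19.9 and 18.2 CPM against 12.9 to 14.1 CPM (0.49, SE 0.20, adjusted p = 0.0394). The polymerase gene *Pola1* had 100.3, 87.2 and 106 CPM against 81.6 to 84.5 CPM (0.25, SE 0.10, adjusted p = 0.0412). The call of *Orc1* was lost without any 1 of the 6 libraries compared (adjusted p up to 0.13) and that of *Pola1* without any but the second cycloheximide library (adjusted p up to 0.223). Both calls were also lost on the most counted transcript, and that of *Pola1* with DESeq2. Single libraries decided further calls: 6 genes were called without the first PDGF library and 6 without the second cycloheximide library, where *Gins4* was lost in both fits (adjusted p up to 0.0936) and *Mcm4* in the latter. *Mcm2* and *Mcm7*, of the same ring as *Mcm4*, had intervals of -0.17 to 0.16 and -0.25 to 0.18. *Gins1*, *Gins3*, *Orc6* and *Mcm10* were not called either, with changes of -0.01, 0.28, -0.58 and -0.87.

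Compared with cells without PDGF, cycloheximide and PDGF left 6 of the 24 genes higher, *Mcm4*, *Rfc2*, *Rfc5*, *Slbp*, *Clspn* and *Brca1*. *Mcm7*, *Pola2* and *E2f7* were lower. Of all genes tested 47.4% were called, 24.6% higher and 22.8% lower. Among the 24 genes the share called higher was thus near that of all genes, and the share called lower was below it. *Rfc2* had the largest rise, 2.25 (SE 0.33, adjusted p = 2.54e-08), and *E2f7* had the clearest fall, by 1.0 on the log2 scale (SE 0.18, adjusted p = 1.99e-06). By library-size scaling *Rfc2* alone stayed higher, 7 genes were lower, and *Mcm4* turned to -0.10 (adjusted p = 0.414), while the calls over all genes went from 2611 higher and 2417 lower to 1615 higher and 4400 lower. *Pola2* was called at -1.37 (SE 0.29, adjusted p = 4.24e-05), but its most counted transcript changed by 0.00 (adjusted p = 0.997). That transcript had 67 reads without PDGF and 63 with cycloheximide and PDGF, whereas all protein-coding transcripts together went from 122 to 73 reads, those with a retained intron from 103 to 10 and a processed transcript from 9 to 0. The calls of *Mcm4*, *Mcm7*, *Rfc5*, *Slbp* and *Clspn* were each lost in 2 to 4 fits without 1 library, and each of the 6 libraries compared decided at least 1 of them (adjusted p up to 0.192, in *Clspn*).

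**Figure D4:**
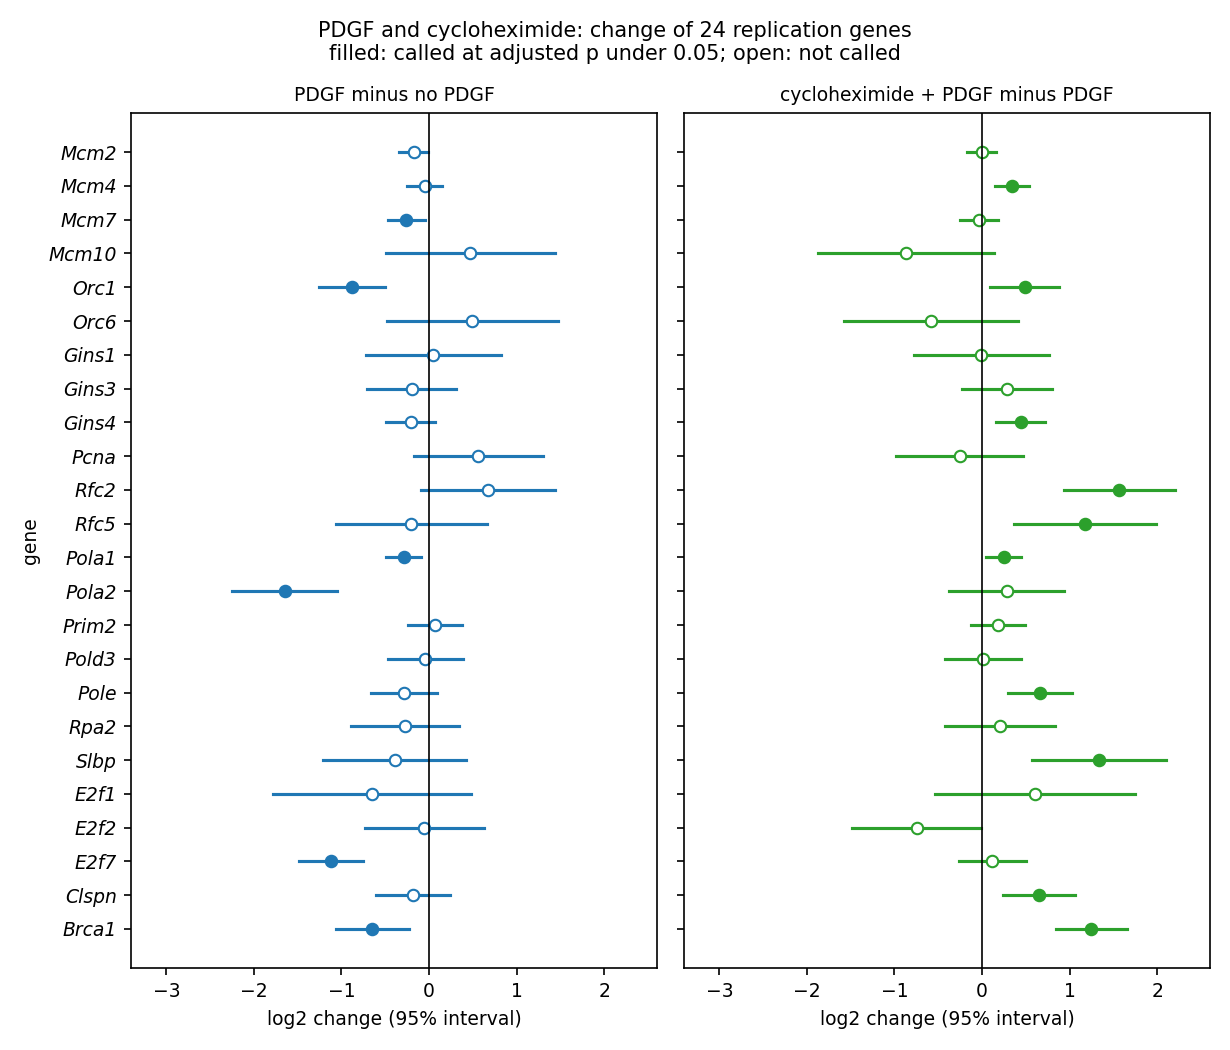
Log2 change of the 24 tested genes with PDGF against no PDGF (left) and with cycloheximide and PDGF against PDGF alone (right); lines are 95% intervals, filled points were called and open points were not. On the left the 6 called genes lie below 0, and on the right the 10 called genes lie above 0; both panels use the PDGF libraries.

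TerminaTOR was compared with mCherry in cells given cycloheximide and PDGF. These are different stable lines, so the inhibitor and a difference between the lines cannot be told apart. None of the 24 genes was called by edgeR, where 4.92% of all genes tested were called. An unadjusted p under 0.05 was reached by 6 of the 24 and by 1739 of all 10603 genes. With DESeq2, limma-voom and library-size scaling 1 gene was called, *Orc1* in each, and in a fit of these 6 libraries alone 2 were, *Orc1* and *Mcm4*, all of them higher in TerminaTOR cells. The median change was 0.20 over the 24 genes and 0.00 over all genes tested. A positive value was seen in 17 of the 24 and in 5307 of the 10603 genes. Library-size scaling moved the calls over all genes from 249 higher and 273 lower to 321 higher and 210 lower.

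*Orc1* had 19.4, 19.9 and 18.2 CPM in mCherry cells and 28.3, 24.8 and 30.8 CPM in TerminaTOR cells, a difference of 0.54 (95% interval 0.18 to 0.89, adjusted p = 0.0682). *Mcm4* had 130, 162 and 142 CPM against 172, 166 and 183 CPM (0.26, 0.07 to 0.45, adjusted p = 0.109), and *Mcm2* had 137, 150 and 139 CPM against 155, 163 and 171 CPM (0.20, 0.04 to 0.36, adjusted p = 0.175). The TerminaTOR libraries were above the mCherry libraries in all 3 genes, by edgeR's adjusted p without a call. In *Mcm7*, *Gins4*, *Pola1*, *E2f7* and *Brca1*, among others, the groups overlapped, and separation was not counted over all genes. *E2f2* had 3.93, 3.03 and 3.07 CPM against 7.18, 5.70 and 6.10 CPM (0.92, 0.21 to 1.64, adjusted p = 0.145), and *Rpa2* 4.76, 8.82 and 7.68 CPM against 11.6, 10.03 and 13.4 CPM (0.71, 0.14 to 1.29, adjusted p = 0.171). *Prim2* was the sixth gene with an unadjusted p under 0.05 (0.31, 0.02 to 0.60, adjusted p = 0.262). *Mcm4* was called without the second cycloheximide library of the mCherry cells (0.34, adjusted p = 0.0478). For *Pole*, *Clspn* and *Brca1*, which fell with rapamycin, the intervals were -0.40 to 0.30, -0.35 to 0.42 and -0.43 to 0.30. The summed level of the fibroblast markers was 8394 to 8749 CPM in mCherry cells and 9745 to 10290 CPM in TerminaTOR cells, and its part in these differences was not tested.

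The change with rapamycin differed from the change with TerminaTOR in 11 of the 24 genes, and in each the rapamycin change was the lower. This was a test of the difference itself between contrasts that share no library, and over all genes tested it called 24.0% in either direction and 12.4% lower. The median difference was -0.78 over the 24 genes and 0.02 over all. Library-size scaling again called 11 of the 24, all lower, and moved the calls over all genes from 1228 higher and 1320 lower to 867 higher and 1855 lower. *E2f2* differed most, by -2.18 (SE 0.54, adjusted p = 0.00124), from -1.26 with rapamycin to 0.92 with TerminaTOR. *Mcm4* differed by -1.34 (SE 0.15, adjusted p = 6.2e-11) and *Mcm2* by -1.09 (SE 0.12, adjusted p = 1.17e-11). The polymerase genes *Pole* and *Pola1* differed by -0.92 (SE 0.28, adjusted p = 0.00995) and -0.75 (SE 0.14, adjusted p = 3.07e-05). The others were *E2f7* (-1.21), *Rpa2* (-1.29), *Clspn* (-0.94), *Orc1* (-0.82), *Gins4* (-0.75) and *Mcm7* (-0.56), with adjusted p from 0.000779 to 0.0286. *Orc1*, *Rpa2* and *Clspn* were each lost in 5 or 6 of the 12 fits without 1 library (adjusted p up to 0.135). Cycloheximide was present in the TerminaTOR contrast only, so the difference between the inhibitors and the presence of cycloheximide cannot be told apart. The TerminaTOR contrast also lies between stable lines and the rapamycin contrast within the mCherry line, so a difference between lines cannot be told apart either.

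**Figure D5:**
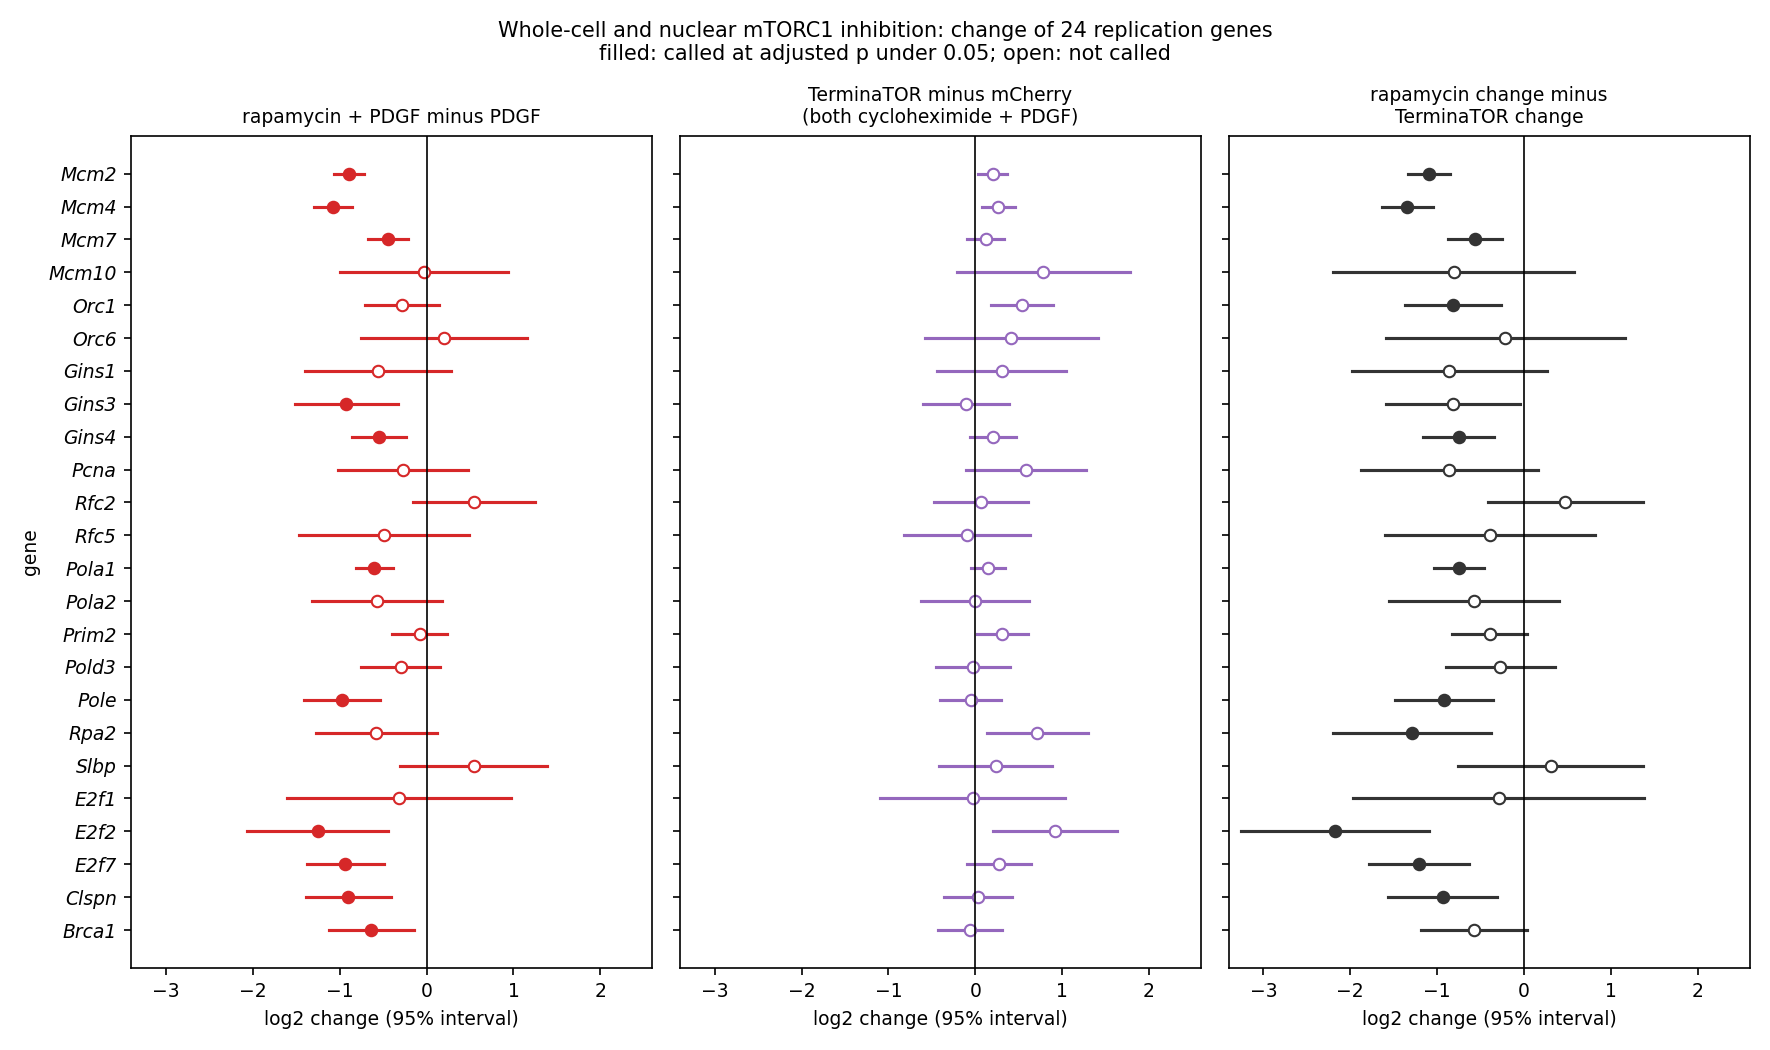
Log2 change of the 24 tested genes with rapamycin (left), with TerminaTOR against mCherry under cycloheximide (middle), and the rapamycin change minus the TerminaTOR change (right); lines are 95% intervals, filled points were called and open points were not. The 11 called genes on the left lie below 0, none is called in the middle, and 11 are called on the right.

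Other genes of the cycle were counted from lists drawn up by function. Their counts are set beside the shares over all genes tested and are not tests of the lists. With rapamycin against PDGF, 16.1% of all genes tested fell and 16.3% rose. In that comparison 13 of 17 tested mitosis genes fell and none rose, among them the checkpoint kinase gene *Bub1b* (-1.91, adjusted p = 3.55e-19), the anaphase activator *Cdc20* (-1.50, adjusted p = 3.5e-14) and the mitotic kinase *Plk1* (-1.14, adjusted p = 1.22e-05). In the list of deoxynucleotide supply 6 of 10 fell and 1 rose: *Dut*, which removes dUTP, fell by 1.33 on the log2 scale (adjusted p = 0.0202), *Dck*, which salvages deoxycytidine, fell by 1.27 (adjusted p = 2.39e-15), and *Tk1*, the thymidine kinase of S phase, rose by 1.17 (adjusted p = 1.13e-07). Of 14 genes of the S phase checkpoint and repair 6 fell, with the exonuclease *Exo1* at -1.38 (adjusted p = 0.000165) and *Tonsl*, a factor of fork repair, at -1.15 (adjusted p = 0.0298), and 1 rose. Among 21 further replication factors 5 fell and 2 rose, nearer to the shares over all genes. They include *Ticrr*, which helps fire origins (-2.14, adjusted p = 4.16e-10), the single-strand binding subunit *Rpa3* (-1.25, adjusted p = 0.00194) and the topoisomerase *Top1* (1.68, adjusted p = 9e-34). Of 23 genes of G1/S control 7 fell, including the cyclin *Ccne1* (-1.30, adjusted p = 0.00669), and 3 rose. CDK inhibitors moved both ways: *Cdkn1a* rose by 1.97 (adjusted p = 0.000134), whereas *Cdkn2c* fell by 1.21 (adjusted p = 2.25e-08) and *Cdkn1b* by 0.96 (adjusted p = 5.46e-10).

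In TerminaTOR against mCherry cells the calls in these lists were few, where 2.35% of all genes tested rose and 2.57% fell. The mitosis genes *Cenpf*, *Cenpe* and *Kif11* rose, 3 of 17, by 0.35 (adjusted p = 0.0198), 0.26 (adjusted p = 0.0165) and 0.24 (adjusted p = 0.0429). *Exo1* rose by 1.30 (adjusted p = 9.79e-05), *Dck* by 0.37 (adjusted p = 0.00878) and the topoisomerase *Top2a* by 0.33 (adjusted p = 0.00364), each the only call of its list. In PDGF against no PDGF, where 16.9% of all genes tested fell and 20.1% rose, 8 of the 17 mitosis genes fell and none rose. Of the 21 further replication factors 4 rose and 4 fell, with the polymerase delta subunit *Pold2* among those that rose (1.05, adjusted p = 2.78e-05). Of the 14 checkpoint and repair genes 4 fell and none rose, and of the 10 genes of deoxynucleotide supply 2 rose and 1 fell. In the G1/S list 4 rose and 6 fell: *Myc* rose by 1.90 (adjusted p = 0.000251) and *E2f3*, a further activating E2F, by 1.61 (adjusted p = 0.00815), and the transcription factor *Mybl2* fell by 1.53 (adjusted p = 0.0174). With cycloheximide against PDGF, where 21.0% of all genes tested rose and 19.6% fell, 5 of the 14 checkpoint and repair genes rose and 1 fell, *Bard1*, the partner of *Brca1*, by 1.05 (adjusted p = 1.77e-07) and the helicase *Brip1* by 0.95 (adjusted p = 5.25e-07) among those that rose. Of the 17 mitosis genes 7 rose and 1 fell. Among the 21 further replication factors 5 rose and 3 fell, *Pold2* among the latter (-0.73, adjusted p = 0.00303). In the G1/S list 3 of 23 rose and 3 fell, and in deoxynucleotide supply 1 of 10 rose and 2 fell.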

How the data were processed

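Each library's deposited file holds raw whole-number read counts per mouse transcript, judged from its values. Alignment and counting tools listed in the submitters' processing notes are HISAT2 (2.2.1), HTSeq (0.9.1) and R (4.1.0), with the human build hg38; the mouse build and annotation are not stated in any source used here. Of 142446 transcript identifiers, 141536 matched GENCODE M21 (GRCm38) without their version, and the 910 others, with 0.0309% of counts, were left out before the sum per gene. No source used here states how HTSeq treated reads that fall on several transcripts; by its default they are dropped, and a sum can then move with isoforms. Coordinates are 1-based on GRCm38.

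All 15 libraries entered 1 edgeR 4.0.16 fit (R 4.3.3; filterByExpr, TMM, robust quasi-likelihood, 10 residual degrees of freedom), with Benjamini-Hochberg adjustment over 10603 genes. Comparisons that share libraries are not independent. The SE is back-calculated from the test statistic, and the 95% intervals use it. The code was tested on simulated data. The alternatives were DESeq2 1.42.0, limma 3.58.1 (voom), library-size scaling, no filter, the most counted transcript, the compared groups only, a replicate block and leaving out each library. Figures used matplotlib 3.10.9. The 47 genes, the lists and the rule for named genes were chosen with earlier results of these data known. By that rule, library values are given for up to 4 called genes per role with the largest change in each of the 4 comparisons with PDGF, rapamycin, cycloheximide and TerminaTOR. Of the other lists, changes are given for up to 3 called genes whose average log2 CPM reached 1; only some of these are printed. *Mcm7* with rapamycin, *Cdkn1b* and the read counts of untested genes were added after their values were seen. Promoter matches were printed for all 6 genes lowered by rapamycin that hold one, where the rule named 3 and *E2f1*.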

Additional observations from a re-analysis of the deposited data

How the results depend on the processing

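Against PDGF alone, 10 of 143 values for the genes called lower with rapamycin lost their call under an alternative, and none changed direction. The same count was 10 of 78 for PDGF, 27 of 130 for cycloheximide, 6 of 195 for rapamycin and PDGF against no PDGF, 16 of 209 for the rapamycin change minus the TerminaTOR change, and, for cycloheximide and PDGF against no PDGF, 24 of 117 lost and 2 reversed. Those 2 were *Mcm4* at -0.10 by library-size scaling and *Pola2* at 0.002 on its most counted transcript. Called replication genes numbered 10 by library-size scaling for PDGF and, for TerminaTOR, 1 by library-size scaling, DESeq2 or limma-voom and 2 in the compared groups only, where 804 of all genes were called in place of 522. Leaving out 1 library gave 3 to 6 genes for PDGF, 6 to 8 for cycloheximide, 0 to 1 for TerminaTOR and 9 to 11 for rapamycin. It gave 13 to 15 for rapamycin against no PDGF, 6 to 9 for cycloheximide against no PDGF and 8 to 11 for the difference. Over all genes tested the ranges were, in the same order, 3388 to 3673, 3754 to 3928, 308 to 367, 2864 to 3192, 5339 to 5550, 4564 to 4775 and 2237 to 2480. Uncalled TerminaTOR values changed sign within the ranges over left-out libraries, -0.273 to 0.0865 for *Gins3*, -0.0745 to 0.0963 for *Clspn* and -0.177 to 0.0522 for *Brca1*. The cause was not tested.

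The summed level by library size alone averaged 908.6 CPM without PDGF, 375.5 with rapamycin, 694.3 with cycloheximide and 810.1 with TerminaTOR. As a mean z score over the tested genes, the groups in the order no PDGF, PDGF, rapamycin, cycloheximide and TerminaTOR stood at 0.203, -0.157, -1.06, 0.262 and 0.752, and without the 5 genes with the most reads, an alternative chosen after seeing the data, at 234.8, 180.5, 133.4, 238.5 and 269.4 CPM. Rapamycin was lowest in each.

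The replicate numbers gave no clear pairing of the libraries. Deviations of same-numbered libraries correlated at -0.04 to 0.08 over 30 pairs, and those of other-numbered libraries at -0.08 to 0.06 over 60. The medians were 0.008 and -0.004, and 8 of 15 libraries correlated best with their own number. Correlations this small do not exclude a pairing. With the replicate block, 6 replication genes were called for PDGF, 11 for rapamycin, 10 for cycloheximide, 0 for TerminaTOR, 15 for rapamycin against no PDGF, 10 for cycloheximide against no PDGF and 11 for the difference. Of all 10603 genes tested, that fit called 3933, 3444, 4332, 563, 5653, 5041 and 2587, in the same order. Depth limits the genes with few reads: *E2f1*, with 152 reads over 15 libraries the lowest of those tested, had an interval for rapamycin from -1.61 to 0.97 on the log2 scale.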
